A study of Mus musculus with 8 samples.

Results

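The genes described here encode 9 proteins of the machinery that docks, primes and fuses insulin granules at the plasma membrane of the beta cell. They are *Snap25*, *Stx1a*, *Vamp2*, *Syt7*, *Syt4*, *Rims2*, *Unc13a*, *Rab3a* and *Rab27a*. The genes were chosen by name, and all 9 were among the 17362 genes of the deposited table. They were followed in beta, alpha, delta and PP cell nuclei, which fill 24 of the 54 columns.

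Nuclei from cultured islets of mice, about 100 islets per sample, were sequenced one by one (snRNA-seq) to ask which responses to cAMP depend on phosphorylation of Med14, the scaffold subunit of the Mediator complex. Islets were wild type (WT) or carried the whole-body Med14 S983A knock-in (mutant), in which alanine replaces the serine, on a C57BL/6J background per the study's methods. Islets of each genotype were untreated (CON), given the adenylyl cyclase activator forskolin (FSK), or given Exendin-4 (Ex-4; 10 nM, 16 h), an agonist of the GLP-1 receptor. Per the study, exposure to FSK in islets was also 16 h. Nuclei of the 6 conditions were barcoded in separate wells and then shared 8 sublibraries, and the table gives 1 pooled value for each condition and cell type. The sources used here do not give the age or sex of the mice, the number of animals behind a pool, or the dose of FSK in islets.

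In a beta cell, glucose closes potassium channels, calcium enters, and granules that are already docked and primed fuse within moments. Fusion is driven by SNARE proteins, a granule SNARE (VAMP2) pairing with plasma membrane SNAREs (syntaxin 1A and SNAP25), while synaptotagmins sense calcium, RIM and Munc13 proteins prime the granule, and Rab GTPases recruit it to the membrane. cAMP, which FSK and Ex-4 raise, is known to amplify this step through protein kinase A and EPAC2, the latter acting with RIM2.

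Because each condition and cell type was 1 pool, no test could be run and no replicate spread could be measured. Condition also cannot be told apart from islet preparation and barcoding well. Levels are given as counts per 10000 counts of the column (CP10K), with exact 95% Poisson intervals, and ratios of levels with exact conditional intervals. All of these intervals cover counting error only. A gene was called higher or lower when log2(CP10K + 0.1) differed by more than 1.5-fold (0.58), among genes with at least 60 counts over the 6 conditions of a cell type. The pseudocount of 0.1 shrinks the difference of genes near or below that level. Column totals were 1915006 to 3094377 counts in beta, 269394 to 810127 in alpha, 362410 to 631433 in delta and 38625 to 127727 in PP cells. Hormone genes followed the column labels. *Ins2* was at 8.76 to 16.4 CP10K in beta columns and *Gcg* at 33.8 to 115 in alpha columns. *Sst* was at 2.84 to 6.11 in delta and *Ppy* at 7.13 to 12.2 in PP columns. PP columns also held *Gcg*, at 0.633 to 9.86 CP10K.

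Transcripts of ribosomal RNA linked and mitochondrial genes (15 genes, 6 of them mitochondrial) took 3.45% of beta cell counts in WT CON, 2.81% in the FSK pool and 9.21% in the Ex-4 pool. In mutant beta cells their share was 11.9% in CON, 2.76% in FSK and 14.9% in Ex-4. The share was thus high in the same conditions in which *Snap25* was low, and its part in the differences below was not tested. Rescaling the columns without these genes kept 19 of the 24 called member differences past the threshold. Its shifts were smaller than the threshold, so it could not turn the sign of a call.

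The members lie on 8 chromosomes. In GRCm39 (GENCODE M39), *Snap25* spans chr2:136533580-136624362, *Stx1a* chr5:135052139-135079963, *Vamp2* chr11:68979316-68983210 and *Syt7* chr19:10366033-10430544, all on the plus strand. *Rims2* spans chr15:39060328-39549500 and *Rab27a* chr9:72952124-73004911 on the plus strand. *Rab3a* lies at chr8:71207238-71211333 on the plus strand and *Unc13a* at chr8:72076694-72124685 on the minus strand. *Rims2* is the longest member at 489.17 kb, of which 2.79% is exon, and *Vamp2* the shortest at 3.9 kb. *Rab3a* overlaps *Mpv17l2*, *Unc13a* overlaps *Colgalt1* and *Jak3*, and *Syt4* overlaps *Gm26658*, each also measured in the table. Use of strand in the counting is not stated, so reads of these pairs may be shared.

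The cAMP response element (CRE), to which CREB binds, has the full sequence TGACGTCA, and its short form, searched on both strands, is TGACG, which the full sequence contains. RefSeq promoters of 300 bases (GRCm38.p6, 250 before the start and 50 after it) were held for 4 members, *Rab27a*, *Rab3a*, *Stx1a* and *Unc13a*, with 6 promoters in all. *Snap25*, *Vamp2*, *Syt7*, *Syt4* and *Rims2* had no entry. Of the 6 promoters, 0 held the full CRE, which was present in 1.79% of all 32851 promoters, and 4, 1 for each gene, held the short form on either strand, which was present in 20.8%. These windows are shown because the treatments act through cAMP, and the capitals mark the short form as read on either strand. They are chr9:73064114-73064143 (plus strand), chr8:70754655-70754684 (plus), chr5:135023326-135023355 (plus), chr8:71671784-71671813 (minus) and chr8:71671758-71671787 (minus), in this order.
Rab27a: ggcccagccataTGACGagcagctgagact
Rab3a: tccctcccctaaCGTCAcagcttcgtttgc
Stx1a: gagatcactagtTGACGaggggaggaacca
Unc13a, first: ccggccccgcccCGTCAcgcgtctccggct
Unc13a, second: ggctccgcccacgccgcagCGTCAgagcgc
Relative to the start, the motif lay at -22 in *Rab27a*, -36 in *Rab3a*, -144 in *Stx1a*, and -44 and -11 in *Unc13a*. Matches that crossed or followed the start, 1 each in *Rab3a* and *Unc13a*, are not shown. A match of letters is a description of the window, and binding was not measured.

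Per kb of exon, 4 members stood above the other 5 in beta cells. Pooled over the 6 conditions, *Rab27a* reached 573, *Snap25* 541, *Rims2* 538 and *Syt7* 515 in units of CP10K × 1000 per kb of exon. *Unc13a* followed at 135 and *Vamp2* at 102, then *Syt4* at 81.8, *Stx1a* at 36.1 and *Rab3a* at 32.7. The leading 4 were the same genes in each of the 6 conditions, but their order was not: *Snap25* was the lowest of the 4 in mutant CON (238) and the highest in mutant FSK (919). The order also depends on the length used, since nuclear RNA holds introns: per kb of gene, *Vamp2*, whose annotated exons together cover the whole gene, came first at 102 and *Rims2* next to last at 15. *Stx1a* was last on that scale, at 4.18.

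All members but *Stx1a* were higher in beta cells than outside the endocrine lineage. In the pooled non-endocrine columns (ductal, endothelial, macrophage, neuron and muscle; 1416724 counts), *Snap25* had 0.812 CP10K (0.670 to 0.974), against 5.41 (5.295 to 5.529) in the pooled beta columns, a level 6.67 times as high. The same ratio was 4.48 for *Rab27a*, 4.33 for *Rims2*, 4.11 for *Syt7*, 4.0 for *Unc13a* and 3.41 for *Syt4*. It was 2.09 for *Vamp2* and 1.99 for *Rab3a*, the latter on 7 non-endocrine counts, whose interval (0.0199 to 0.102 CP10K) holds the beta level of 0.0985. Beta cell markers summed to 40.1 to 46.9 CP10K in beta columns, but were also present outside the endocrine columns. They summed to 7.89 to 27.8 in neuron, 0.0 to 26.3 in ductal and 2.74 to 12.2 in macrophage columns. In endothelial columns the sum was 1.98 to 9.94 and in muscle columns 2.27 to 8.69. The part of beta cell RNA in the non-endocrine values was not tested. *Stx1a* went the other way. It had 1.53 CP10K (1.34 to 1.75) outside the endocrine columns and 0.116 (0.0997 to 0.135) in beta cells. Endothelial columns carried 180 of its 217 non-endocrine counts, at 2.59 CP10K (2.22 to 2.99), and ranged from 1.63 to 3.12 over the 6 conditions. Muscle columns had 1.04 (0.712 to 1.47), while neuron columns had 0 counts (interval up to 0.206). In neuron columns the 2 of 8 neuronal markers in the table summed to 0.0 to 2.22 CP10K, below the beta cell markers there. The label of the neuron columns was therefore little checked by markers. The endothelial marker list (5 of 5 genes in the table) summed to 0.0840 to 0.229 CP10K in beta columns, and the part of such RNA in the endocrine *Stx1a* values was not tested.

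**Figure D1:**
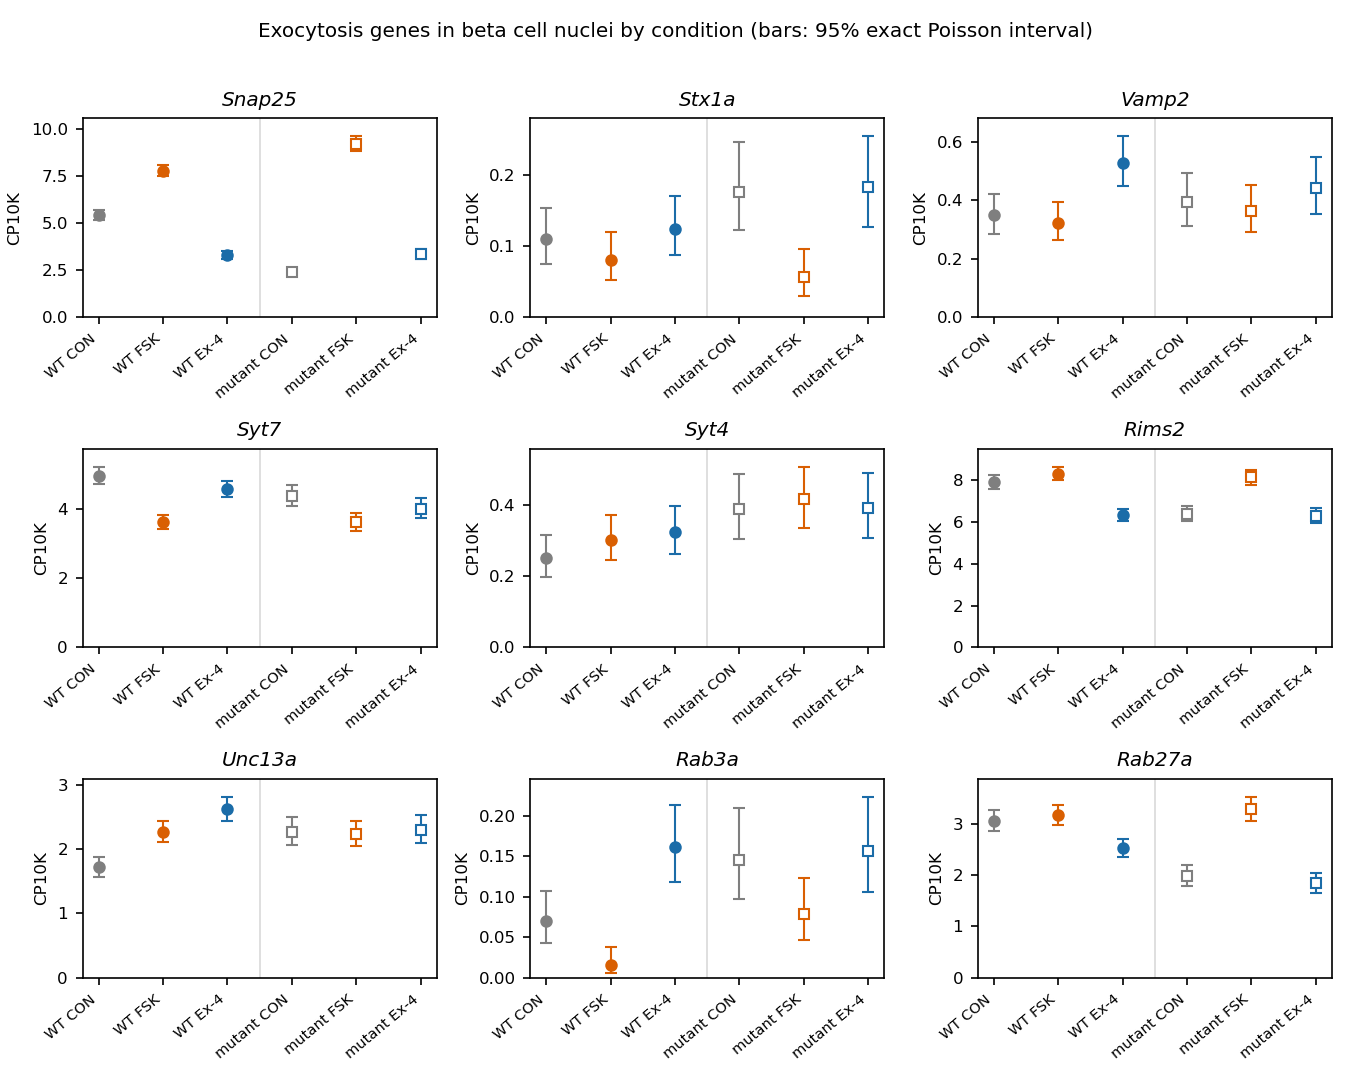
Level of each exocytosis gene in beta cell nuclei (CP10K, linear axis from 0) in the 6 conditions, with exact 95% Poisson intervals of the count and 1 pool per point (filled circles WT, open squares mutant; grey CON, orange FSK, blue Ex-4). *Snap25* is lowest in mutant CON (2.38) and highest in mutant FSK (9.20), and *Rab27a* is lowest in the mutant CON and Ex-4 pools.

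*Snap25* encodes a plasma membrane SNARE, the target of several botulinum neurotoxins, and was among the members of high count in beta cells. Its level was 5.43 CP10K in WT CON, 7.79 in the FSK pool and 3.29 in the Ex-4 pool, and 2.38 in mutant CON, 9.20 in mutant FSK and 3.35 in mutant Ex-4. The counts behind these values were 459 to 2409. Both FSK pools stood above, and both Ex-4 pools and mutant CON below, the WT CON pool. The untreated mutant had 0.439 times the WT CON level (0.395 to 0.487), a log2 difference of -1.15 that placed *Snap25* at the 2.05th percentile of the 10987 genes kept in beta cells. FSK in the mutant gave 3.86 times the mutant CON level (3.49 to 4.28), at the 99.1th percentile. In WT, FSK gave 1.43 times the CON level (1.35 to 1.53), at the 94.1th percentile but short of the fold threshold at 0.51. This WT FSK difference passed with the median set to 0 (0.73) and with the length trend removed (0.59). Ex-4 gave 0.606 times CON in WT (0.559 to 0.656) and 1.4 times CON in the mutant (1.24 to 1.59), so that the genotypes moved in opposite directions and ended at 3.29 and 3.35 CP10K. Of the calls for *Snap25* in beta cells, the untreated mutant and mutant FSK stayed past the threshold under every alternative scaling, pseudocount and filter, at -0.86 or below and 1.59 or above. The WT Ex-4 difference of -0.71 became -0.58 with a pseudocount of 1 and -0.56 with the length trend removed, both within the threshold.

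Alpha cell markers (7 of 7 in the table, none at 0 in all beta columns) summed to 1.68, 3.71 and 1.18 CP10K in WT CON, FSK and Ex-4 beta columns, and to 2.08, 4.45 and 2.48 in the mutant ones. They were therefore highest in the FSK pools, where *Snap25* was highest, and their part in the *Snap25* values was not tested. In alpha columns the same list summed to 39.6 to 126 CP10K and *Snap25* itself was lower than in beta columns in every condition, at 2.32 to 3.90 CP10K. The summed level of the beta markers (9 of 9) was 40.1 to 46.9 CP10K across beta columns, and of delta markers (4 of 4, 1 at 0) 0.0194 to 0.324.

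*Stx1a*, which encodes the syntaxin that pairs with SNAP25, was scarce in beta cells. It had 0.110, 0.0808 and 0.124 CP10K in WT CON, FSK and Ex-4, and 0.177, 0.0564 and 0.183 in the corresponding mutant pools, on 13 to 37 counts each. The FSK pool was the lowest of each genotype. Only mutant FSK against mutant CON passed the threshold, at 0.32 times (0.155 to 0.621), and its log2 difference of -0.82 became -0.16 with a pseudocount of 1. In the untreated mutant the ratio to WT CON was 1.61 with an interval of 0.969 to 2.69, which holds 1.

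*Vamp2*, the granule SNARE, had 0.349 CP10K in WT CON, 0.323 in the FSK pool and 0.530 in the Ex-4 pool of beta cells. The mutant values were 0.395, 0.365 and 0.444 in the same order, on 76 to 158 counts over the 6 pools. WT Ex-4 was the highest pool, 1.52 times WT CON (1.18 to 1.97), and with the pseudocount it lay within the threshold at 0.49. This difference turned to -0.06 when a trend with gene length was removed, and the direction therefore depends on the scaling. No other *Vamp2* ratio in beta cells had an interval clear of 1.

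*Syt7* encodes the high affinity calcium sensor of insulin granule fusion and varied little in beta cells. Its level was 4.96, 3.62 and 4.57 CP10K in WT CON, FSK and Ex-4, and 4.37, 3.61 and 4.01 in the mutant. FSK pools were the lowest in both genotypes, at 0.730 times CON in WT (0.675 to 0.789) and 0.827 times in the mutant (0.750 to 0.911), both within the threshold. The *Syt7* difference between the untreated genotypes was small, -0.18 on the log2 scale, and became -0.05 on rescaling and 0.03 with the length trend removed. *Syt4*, whose product lacks calcium binding in its first C2 domain and is known to modulate calcium sensitivity as beta cells mature, had 0.252, 0.304 and 0.325 CP10K in WT and 0.390, 0.417 and 0.392 in the mutant. All 3 mutant pools were above all 3 WT pools, on 75 to 97 counts each, but not beyond counting error. The intervals of the lowest mutant pool, CON (0.306 to 0.488), and the highest WT pool, Ex-4 (0.264 to 0.397), overlapped. The share of all genes with pools so placed was not counted. Under FSK the mutant had 1.37 times the WT level of *Syt4* (1.02 to 1.84). Under Ex-4 the ratio was 1.2, with an interval of 0.878 to 1.64 that holds 1. The untreated mutant stood at 1.54 times WT CON (1.11 to 2.15), a log2 difference of 0.47 and within the threshold. That *Syt4* difference passed on rescaling without the ribosomal RNA linked and mitochondrial genes (0.59), and shrank to 0.15 with a pseudocount of 1 and to 0.09 with the length trend removed.

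*Rims2*, the RIM2 scaffold that ties granules to calcium channels and to EPAC2, fell into 2 levels in beta cells. The higher one held WT CON (7.92 CP10K), WT FSK (8.33) and mutant FSK (8.14), against 6.33 in WT Ex-4, 6.39 in mutant CON and 6.32 in mutant Ex-4. WT Ex-4 had 0.8 times WT CON (0.752 to 0.85) and the untreated mutant 0.808 times (0.753 to 0.865), with neither past the threshold. With the length trend removed, the log2 differences turned from -0.32 to 0.21 and from -0.30 to 0.30, so the direction for this longest member was not stable. *Unc13a* encodes Munc13-1, which opens syntaxin for SNARE assembly. It was lowest in WT CON at 1.72 CP10K, with 2.27 in WT FSK, 2.63 in WT Ex-4, and 2.28, 2.24 and 2.30 in mutant CON, FSK and Ex-4. The 3 mutant pools lay within counting error of each other. WT Ex-4 reached 1.53 times WT CON (1.37 to 1.71), just short of the threshold once the pseudocount was added, and passed it (0.67) when the ribosomal RNA linked and mitochondrial genes were left out.

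*Rab27a*, a granule GTPase that recruits effectors for docking, had 3.05, 3.16 and 2.52 CP10K in WT CON, FSK and Ex-4 beta cells. In the mutant its level was 1.98, 3.28 and 1.84. The untreated mutant was called lower, at 0.650 times WT CON (0.575 to 0.733), and mutant FSK higher, at 1.65 times mutant CON (1.46 to 1.87). Rescaling without the ribosomal RNA linked and mitochondrial genes brought these to -0.47 and 0.56 on the log2 scale, below the threshold. With a pseudocount of 1 both also fell within it, the untreated mutant from -0.60 to -0.44. The untreated mutant difference fell within it with the length trend removed as well (-0.45). WT FSK stayed at 1.04 times WT CON (0.946 to 1.13). *Rab3a*, the other granule GTPase, rested on 5 to 48 counts, with 0.0697, 0.0162 and 0.161 CP10K in WT CON, FSK and Ex-4 and 0.145, 0.0781 and 0.157 in the mutant. WT Ex-4 was called higher, at 2.31 times WT CON (1.36 to 4.06), a log2 difference of 0.62 that became 0.12 with a pseudocount of 1 and 0.08 with the length trend removed. WT FSK had 0.232 times WT CON on 5 against 21 counts (0.0683 to 0.632), a log2 difference of -0.55 with the pseudocount.

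**Figure D2:**
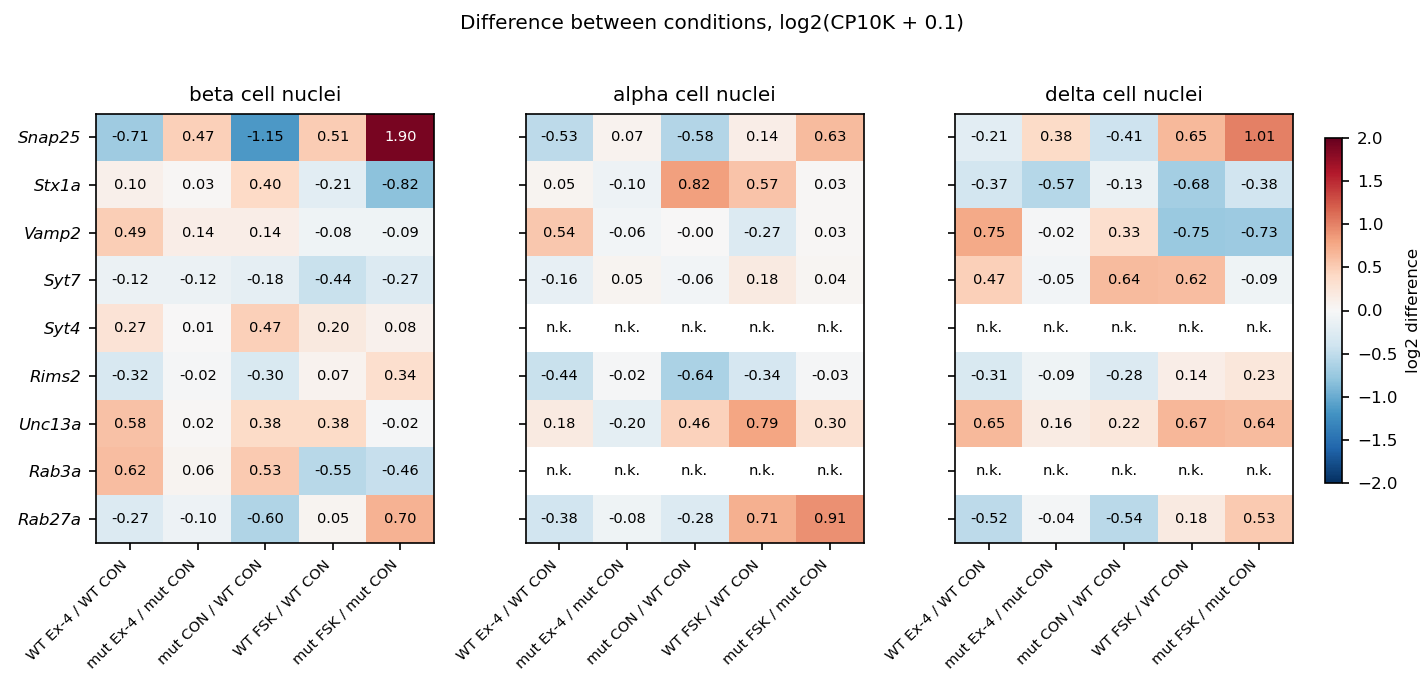
Difference in log2(CP10K + 0.1) for each exocytosis gene (vertical axis) in 5 comparisons of conditions (horizontal axis) in beta, alpha and delta cell nuclei, with the value printed in each square and red for a higher first condition; n.k. marks a gene below 60 counts in that cell type and mut the mutant. *Snap25* in beta cells holds the largest values, 1.90 for mutant FSK and -1.15 for the untreated mutant.

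Set against all genes, the share of members called in beta cells lay near the background in each comparison. For Ex-4 in WT, 1 of 9 members was higher (*Rab3a*) where 14.6% of the 10987 genes kept were higher, and 1 was lower (*Snap25*) where 7.65% were. Rescaling gave 2 higher and 1 lower, setting the median to 0 gave 0 and 1, and removing the length trend gave 0 and 0. For Ex-4 in the mutant, 0 of 9 were higher or lower, with 0.564% of genes higher and 1.69% lower. The median over the members was 0.10 for WT and 0.02 for the mutant, beside 0.12 and -0.03 over all genes kept.

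For the untreated mutant against WT CON, 0 of 9 members were higher where 14.9% of genes were, and 2 were lower (*Snap25* and *Rab27a*) where 14.7% were. That split turned to 2 higher (*Syt4* at 0.59 and *Rab3a* at 0.62) and 1 lower (*Snap25*) on rescaling without the ribosomal RNA linked and mitochondrial genes. For FSK in WT, 0 of 9 were higher or lower, beside 4.82% of genes higher and 13.1% lower. For FSK in the mutant, 2 of 9 were higher (*Snap25* and *Rab27a*) beside 15.9% of genes, and 1 was lower (*Stx1a*) beside 21.2%, which rescaling made 1 higher and 1 lower. The median over all genes was -0.22 for FSK in WT. With that median set to 0, 2 members passed the threshold as higher, *Snap25* at 0.73 and *Unc13a* at 0.60. The comparisons of WT Ex-4, WT FSK and mutant CON share the WT CON pool, and both mutant treatments share the mutant CON pool.

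Within 1 treatment, the genotypes differed less than the untreated pools did for *Snap25*. Under FSK the mutant had 1.18 times the WT level in beta cells (1.11 to 1.25), and under Ex-4 1.02 times (0.92 to 1.13). *Rab27a* was at 1.04 times WT under FSK (0.941 to 1.14) and 0.729 times under Ex-4 (0.640 to 0.828). *Rab3a* under FSK had 18 counts in the mutant and 5 in WT, a ratio of 4.84 with the wide interval of 1.73 to 16.7. For *Syt7* and *Unc13a* the ratio under Ex-4 was 0.877, with intervals of 0.802 to 0.959 and 0.778 to 0.987. The *Rims2* ratio was 0.977 under FSK (0.92 to 1.04) and 0.998 under Ex-4 (0.928 to 1.07).

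In alpha cells 7 members were kept, since *Syt4* (58 counts) and *Rab3a* (20 counts) fell under the filter. *Rab27a* was 1.96 CP10K in WT CON, 3.27 in the FSK pool and 1.48 in the Ex-4 pool, and 1.59, 3.08 and 1.5 in the mutant. Both FSK pools stood above the other 4, at 1.67 times CON in WT (1.22 to 2.28) and 1.93 times in the mutant (1.56 to 2.41). *Unc13a* had 1.98, 3.49 and 2.26 CP10K in WT CON, FSK and Ex-4 and 2.77, 3.42 and 2.40 in the mutant. FSK gave 1.76 times CON in WT (1.30 to 2.40) and 1.24 times in the mutant (1.03 to 1.48), the latter within the threshold. *Snap25* in alpha cells was 3.53, 3.90 and 2.42 CP10K in WT and 2.32, 3.64 and 2.45 in the mutant, with the FSK pool highest in each genotype and mutant CON lowest of all. The untreated mutant had 0.657 times WT CON (0.527 to 0.821), just within the threshold. Mutant FSK was 1.57 times mutant CON (1.30 to 1.90). *Rims2* was highest in WT CON at 13.4 CP10K, with 10.6 and 9.84 in WT FSK and Ex-4 and 8.59, 8.44 and 8.46 in the mutant pools. The untreated mutant was called lower at 0.641 times WT CON (0.573 to 0.718), a log2 difference of -0.64 that turned to 0.22 with the length trend removed.

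The shares of genes given here for alpha cells are those past the threshold in either direction. For alpha cells, 0 of 7 members passed for Ex-4 in WT (37.5% of the 7380 genes kept) and 0 for Ex-4 in the mutant (6.08%). For the untreated mutant 2 passed (40.9% of genes), *Rims2* lower and *Stx1a* higher on 30 against 7 counts, with an interval of 0.955 to 5.98 for its ratio of 2.22. On rescaling, 2 were higher and 0 lower. For FSK, 2 passed in WT (*Unc13a* and *Rab27a*, both higher; 26.8% of genes) and 2 in the mutant (*Snap25* and *Rab27a*, both higher; 25.9% of genes). *Unc13a* in WT FSK and *Rab27a* in mutant FSK were the alpha cell calls that also passed with a pseudocount of 1 (0.59 and 0.65) and with the length trend removed. Alpha and delta columns were shallower than beta columns under the same filter, and the part of counting error in these background shares was not tested.

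In delta cells the same 7 members were kept. *Snap25* had 2.46, 3.91 and 2.11 CP10K in WT CON, FSK and Ex-4 and 1.82, 3.75 and 2.39 in the mutant. The FSK pools were again the highest, 1.59 times CON in WT (1.22 to 2.08) and 2.06 times in the mutant (1.63 to 2.63). *Unc13a* had 2.01, 3.27 and 3.22 CP10K in WT and 2.37, 3.75 and 2.66 in the mutant. FSK gave 1.63 times CON (1.22 to 2.19) and 1.59 times (1.28 to 1.98), and Ex-4 in WT 1.60 times (1.2 to 2.15). *Syt7* was lowest in WT CON at 2.54 CP10K, with 3.57 to 4.03 in the other 5 pools. It was 1.59 times WT CON in the untreated mutant (1.24 to 2.04) and 1.56 times in WT FSK (1.2 to 2.03), whereas in beta cells these ratios were 0.881 and 0.730, the former not stable in direction as given above. *Vamp2* had 6 to 25 counts per delta pool. It was called higher for WT Ex-4 (0.75) and lower for FSK (-0.75 in WT, -0.73 in the mutant). The intervals of these ratios, 0.905 to 4.29, 0.14 to 1.36 and 0.236 to 1.04, all hold 1. Removing the length trend turned the WT Ex-4 difference to -0.17 and the mutant FSK difference to 0.07.

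The shares of genes for delta cells are also those past the threshold in either direction. Delta cells gave 2 of 7 members past the fold for Ex-4 in WT (*Vamp2* and *Unc13a*, higher; 36.1% of the 6789 genes kept). Ex-4 in the mutant gave 0 (8.94%). The untreated mutant gave 1 (*Syt7*, higher; 41.7%). FSK in WT gave 5, *Snap25*, *Syt7* and *Unc13a* higher and *Stx1a* and *Vamp2* lower (33.0% of genes), with 8 against 13 counts for *Stx1a* (interval of the ratio 0.187 to 1.36). FSK in the mutant gave 3, *Snap25* and *Unc13a* higher and *Vamp2* lower (41.1%). With a pseudocount of 1, *Snap25* in mutant FSK (0.75) was the one delta cell call to stay past the threshold. Removing the length trend changed the delta split to 0 higher and 2 lower for WT Ex-4, 1 and 1 for the untreated mutant, 3 and 0 for WT FSK, and 1 and 0 for mutant FSK. Setting the median to 0 gave 1 and 1 for WT Ex-4 and for mutant FSK, and rescaling 1 and 1 for mutant FSK. *Rab3a*, outside the filter, had 11 counts in WT Ex-4 delta cells (0.255 CP10K, 0.127 to 0.456) and 0 in WT CON, where the limit that 3 counts set is 0.0828.

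**Figure D3:**
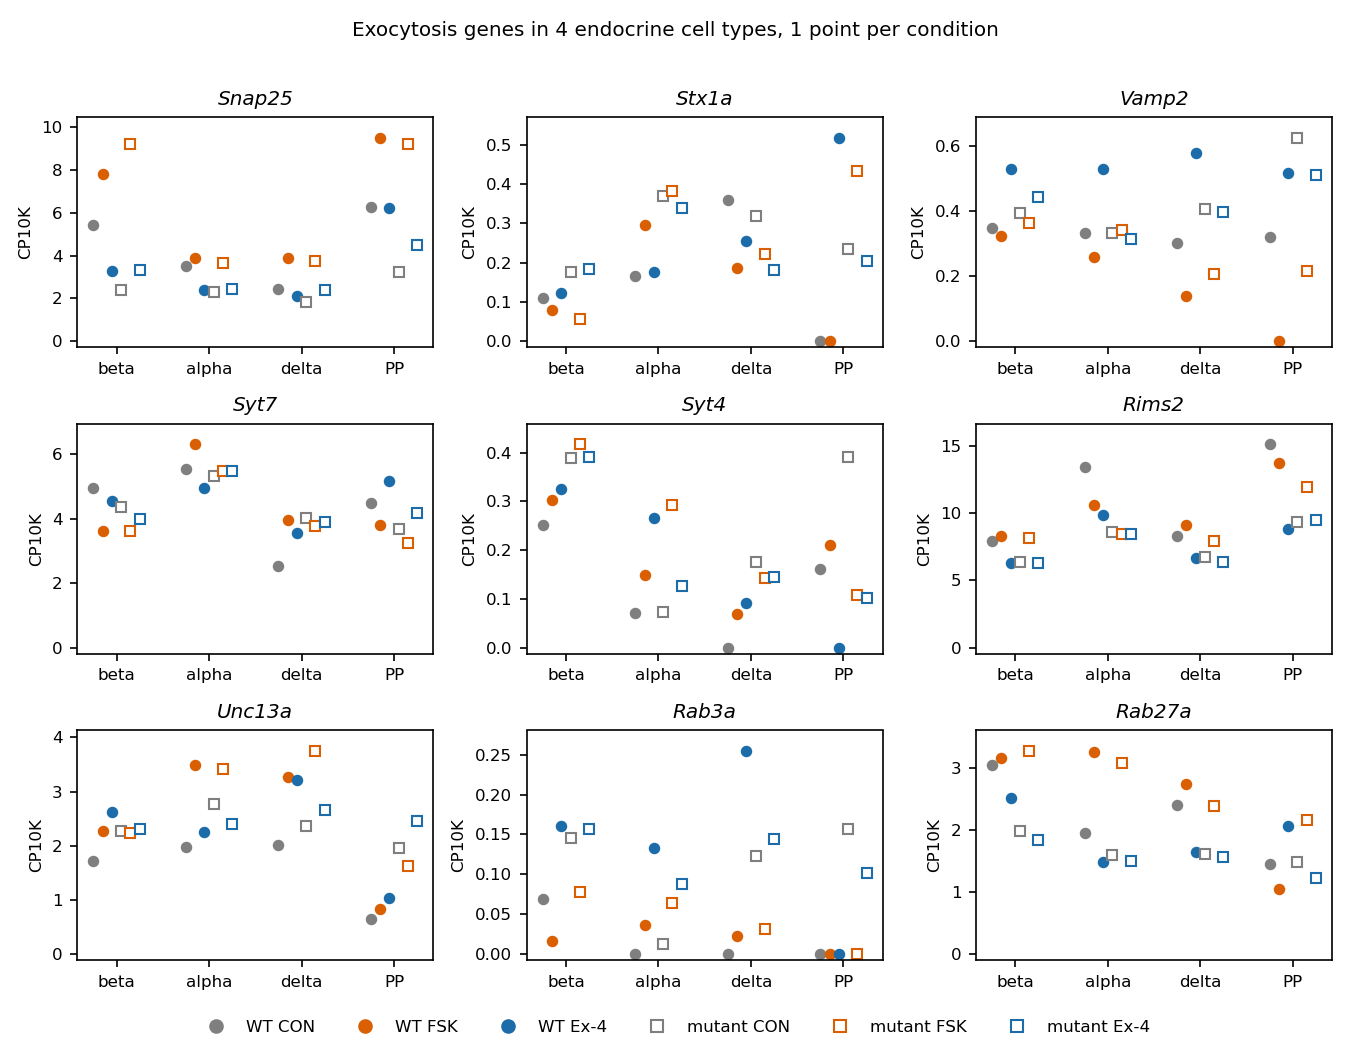
Level of each exocytosis gene (CP10K, linear axis) in beta, alpha, delta and PP cell nuclei, with 1 point for each of the 6 conditions (filled circles WT, open squares mutant). *Syt7* and *Rims2* lie higher in all alpha columns than in any beta column, by gaps within counting error, and *Snap25* spreads from 2.38 to 9.20 in beta cells.

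Between endocrine cell types, the 6 conditions were compared by whether their ranges were apart. *Syt7* was 4.96 to 6.31 CP10K in alpha, 3.61 to 4.96 in beta and 2.54 to 4.03 in delta cells, where the lowest alpha and the highest beta values are 4.963 and 4.956. *Rims2* was 8.44 to 13.4 in alpha, 6.32 to 8.33 in beta and 6.35 to 9.12 in delta cells. Alpha columns were thus above beta with ranges apart for 2 of the 7 members kept in both (7.45% of the 7277 genes) and below for 0 (7.41%). Both gaps were within counting error. For *Syt7* the gap was less than 1 count of the WT Ex-4 alpha column (0.0222 CP10K). For *Rims2* the intervals of the lowest alpha value, 8.437 (7.807 to 9.104), and the highest beta value, 8.334 (8.016 to 8.662), overlapped. Alpha was above delta for 1, *Syt7* (4.25% of 6346 genes), and below for 0 (4.54%). Delta and beta ranges overlapped for all 7, beside 6.66% of 6680 genes with delta above and 6.48% with delta below.

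Other members held an order within each condition while their ranges overlapped. The share of all genes that held such an order was not counted. *Snap25* was higher in beta than in alpha and in delta cells in 6 of 6 conditions, with ratios of the means of 1.72 and 1.91. *Stx1a* was higher in alpha than in beta cells in 6 of 6, with a ratio of 2.37, and *Unc13a* higher in delta than in beta cells in 6 of 6, with a ratio of 1.29. *Rab27a* was higher in beta than in delta cells in 6 of 6, at 1.28 times the delta mean, and higher than in alpha cells in 5 of 6. *Syt4* was higher in beta than in alpha and delta cells in 6 of 6, though delta columns held only 34 of its counts.

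PP columns were too shallow for calls. *Snap25* had 6.27, 9.49 and 6.21 CP10K in WT CON, FSK and Ex-4 and 3.21, 9.21 and 4.5 in the mutant, on 24 to 85 counts. Mutant FSK stood at 2.87 times mutant CON (1.95 to 4.27) and the untreated mutant at 0.512 times WT CON (0.322 to 0.815). Mutant CON was thus the lowest pool, as in beta, alpha and delta cells. Alpha cell markers in PP columns summed to 5.40 CP10K in mutant CON and 13.65 in mutant FSK. In WT they summed to 7.39 in CON and 6.33 in FSK, and their part in the *Snap25* values was not tested. *Rims2* was 8.80 to 15.1 CP10K over the PP columns and highest in WT CON. *Unc13a* had 4 counts in each WT pool and 15 to 25 in each mutant pool. *Stx1a*, *Vamp2*, *Syt4* and *Rab3a* had 0 to 8 counts per pool. Fewer cells of a type and less RNA per nucleus cannot be told apart in such sums.

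Over the 18 beta, alpha and delta columns, the genes whose log2(CP10K + 0.1) was most like that of each member were looked up among 1661 genes with at least 300 counts in each cell type. *Snap25* was most like *Kcnma1* (Pearson r = 0.94) and *Snd1* (0.93), *Rims2* like *Carmil1* (0.94) and *Fam172a* (0.94), and *Syt7* like *Nav1* (0.93) and *Taok3* (0.88). *Rab27a* was most like *Ypel2* (0.92) and *Gmds* (0.90), *Unc13a* like *Camsap2* (0.80) and *Myh9* (0.78), and *Vamp2* like *Dnajc7* (0.83) and *Per2* (0.81). For the members of low count, *Stx1a* was most like *Fnbp1* (0.85) and *Phactr4* (0.84), *Syt4* like *Hdlbp* (0.86) and *Syt13* (0.82), and *Rab3a* like *Aff4* (0.86) and *Atg4a* (0.85). Among the members themselves, *Snap25* and *Rab27a* had r = 0.81, *Vamp2* and *Rab3a* 0.73, *Snap25* and *Stx1a* -0.72, and *Rims2* and *Rab3a* -0.70. The 18 points share 6 conditions, 3 cell types and the column totals, so these values describe likeness of pattern only.

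The other genes of the pathway were taken from a list of 84, of which 77 were in the table and 70 were kept in beta cells. They covered other SNAREs, SNARE regulators, other calcium sensors, other synaptotagmins, priming scaffolds, Rab GTPases with their effectors, and the exocyst, the complex that tethers vesicles before fusion. For Ex-4 in WT, 6 of the 70 were higher and 11 lower, with a median of 0.00, and for Ex-4 in the mutant 1 was higher and 1 lower. For the untreated mutant, 7 were higher and 11 lower (median -0.13). FSK gave 4 higher and 7 lower in WT (median -0.17) and 12 higher and 13 lower in the mutant (median 0.14). The background shares for each direction are those given above for the 9 members.

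**Figure D4:**
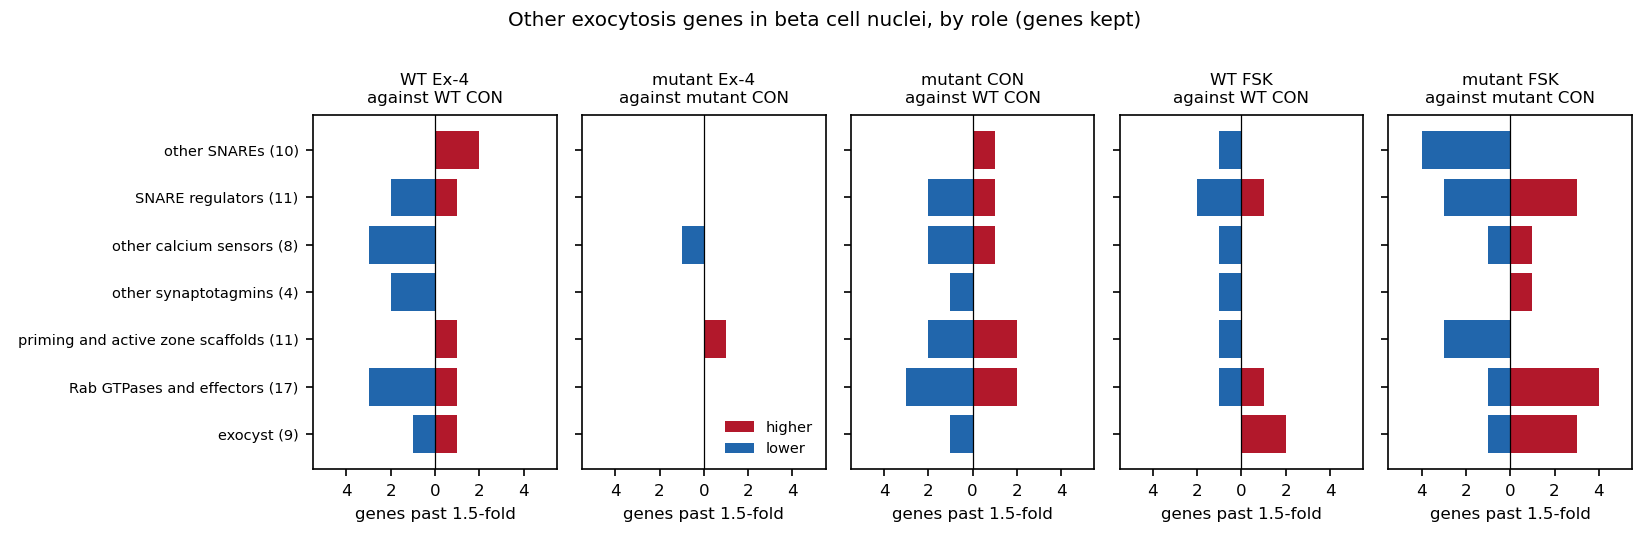
Number of other exocytosis genes past 1.5-fold in beta cell nuclei (bars from 0; red to the right higher, blue to the left lower) for 5 comparisons, by role, with the number of genes kept beside each role. The bars for Ex-4 in the mutant hold 2 genes in all, those for FSK in the mutant 25.

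Among SNAREs outside the 9 members, *Stx4a*, the syntaxin 4 gene, was 2.21 times WT CON in WT Ex-4 (1.63 to 3.02) and 2.91 times in the untreated mutant (2.13 to 4.01). Mutant FSK brought it to 0.267 times mutant CON (0.180 to 0.388). In that comparison 4 of the 10 other SNAREs were lower and 0 higher, beside 21.2% and 15.9% of all genes. Of the 11 SNARE regulators, *Stxbp6* (amisyn, which binds SNARE complexes) had a level of 2.18 CP10K in WT CON, 1.01 after Ex-4 in WT, 0.758 in mutant CON and 2.75 in mutant FSK. This was 0.461 times WT CON for WT Ex-4, 0.347 times for the untreated mutant, and 3.63 times mutant CON for mutant FSK (3.03 to 4.38). *Stxbp5l* (tomosyn-2, an inhibitor of SNARE assembly) was 0.461 times WT CON in WT Ex-4 (0.380 to 0.557) and 0.339 times in WT FSK (0.274 to 0.418). *Stxbp2* (Munc18-2) was 2.25 times WT CON in WT Ex-4 (1.78 to 2.86).

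Of the exocyst, *Exoc6b* was 7.30 CP10K in WT CON and 12.8 in WT FSK, and 5.07 in mutant CON and 12.3 in mutant FSK. These were ratios of 1.76 (1.67 to 1.85) and 2.43 (2.26 to 2.62). *Exoc6* was 1.95 times WT CON in WT FSK (1.60 to 2.38), so that 2 of 9 exocyst genes were higher and 0 lower in WT FSK (beside 4.82% and 13.1% of all genes), and 3 were higher and 1 lower in mutant FSK (beside 15.9% and 21.2%). *Rab3b* was 0.454 times WT CON in the untreated mutant (0.356 to 0.574) and 0.534 times in WT FSK (0.442 to 0.645). *Ppfia3*, a liprin of the release site, was 2.24 times WT CON in the untreated mutant (1.59 to 3.17) and 0.340 times mutant CON in mutant FSK (0.223 to 0.509). For Ex-4 in the mutant, the called genes were *Ppfia2*, at 1.85 times mutant CON (1.17 to 2.96), and *Doc2b*, a calcium sensor with 0 against 10 counts. *Exoc7* at 1.51 times (1.15 to 1.99) and *Cadps2* at 0.651 times (0.503 to 0.84) were next and within the threshold.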

How the data were processed

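Nuclei of mouse islets in 6 conditions were profiled by the authors with combinatorial barcoding. Per the study's methods, reads were aligned to mm39, nuclei were filtered on counts, genes and mitochondrial share, and batches were integrated before clusters received a cell type. The sources used here name no annotation release, nor do they say if raw or corrected counts were pooled. The deposited table holds natural log values, ln(1 + 10000 × count / column total), for 17362 genes in 54 columns. The log was undone and whole counts were recovered, with 100% of values within 0.001 of a whole number.

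Each column is 1 pool, so no test, SD or SE was computed. Levels were given exact Poisson intervals and ratios exact conditional (Clopper-Pearson) intervals (95%). Calls used a 1.5-fold difference of log2(CP10K + 0.1) among genes with at least 60 counts over the 6 conditions of a cell type. A count of 0 was given a limit of 3 counts.

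All 9 members are named. Of the other exocytosis genes, the 2 highest and the 2 lowest in each beta cell comparison are named, and for each member the 2 genes with the highest correlation. Marker genes are named where they check a label. The members and lists were chosen with earlier results of these data known. *Vamp7*, *Cplx1*, *Syt10*, *Doc2a*, *Syt15*, *Rims4*, *Rph3a*, the acinar markers and 6 of 8 neuronal markers were not analysed here. Coordinates and lengths are those of GENCODE M39 (GRCm39), where 16531 genes were matched by symbol and 831 were not, and promoters come from RefSeq (GRCm38.p6). Alternatives were pseudocounts of 1 and 0.01 CP10K, a 2-fold threshold, rescaling without 15 ribosomal RNA linked and mitochondrial genes, the median set to 0, subtraction of a lowess curve (span 0.3) fitted against gene length, no filter and a filter of 300 counts. Scripts were tested on simulated data. The tools were matplotlib 3.10.9, statsmodels 0.14.6, scipy 1.17.1, pandas 2.3.3, numpy 2.4.6 and Python 3.11.15.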

Additional observations from a re-analysis of the deposited data

Results flagged for a closer look

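*Snap25* in beta cells moved in opposite directions with Ex-4 in the 2 genotypes, to 0.606 times WT CON in WT and to 1.4 times mutant CON in the mutant. *Syt7* moved in opposite directions in beta and delta cells in 3 comparisons. It was 0.921 times in beta and 1.4 times in delta cells for WT Ex-4, 0.881 and 1.59 times for the untreated mutant, and 0.730 and 1.56 times for WT FSK. For the untreated mutant the beta cell difference turned from -0.18 to 0.03 (log2) with the length trend removed, which ended the opposite direction, and for WT Ex-4 it shrank from -0.12 to -0.03 on rescaling. These 3 *Syt7* comparisons share the WT CON pools, and the delta WT CON pool held 92 *Syt7* counts. With 1 pool per condition, none of these differences was tested.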

How the results depend on the processing

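Of the 24 member differences called, 20 stayed past the threshold with the median set to 0, 19 on rescaling and 6 with a pseudocount of 1. At a 2-fold threshold 3 stayed past. Without a filter all 24 stayed past, which had to be so because a filter leaves each value as it is. A pseudocount, a threshold or a filter cannot turn the sign of a difference. Rescaling and setting the median to 0 moved each comparison by less than the threshold, so they could not turn the sign of a call either. With the length trend removed, 13 stayed past and 3 changed sign, *Rims2* in mutant alpha cells (0.22) and *Vamp2* in delta cells for WT Ex-4 (-0.17) and mutant FSK (0.07). With a filter of 300 counts, 17 of the 24 kept a value, and these stayed past because the filter does not change values.

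Counts of members past the fold moved as follows, with every change given in beta cells and changes over 1.5 times in alpha and delta cells. For WT Ex-4 in beta cells (2), they were 0 with a pseudocount of 1, 4 with 0.01, 0 at 2-fold, 3 on rescaling, 1 with the median set to 0, 0 with the length trend removed and 1 with a filter of 300 counts. For the untreated mutant in beta cells (2), they were 1 with a pseudocount of 1, 5 with 0.01, 1 at 2-fold, 3 on rescaling (2 higher and 1 lower, against 0 and 2 as reported) and 1 with the length trend removed. WT FSK (0) gave 1 with a pseudocount of 0.01, 2 with the median set to 0 and 1 with the length trend removed, and mutant FSK (3) gave 1 with a pseudocount of 1, 4 with 0.01, 1 at 2-fold, 2 on rescaling and 2 with a filter of 300 counts. In alpha cells, WT Ex-4 (0) gave 1 with a pseudocount of 0.01, 1 on rescaling and 2 without a filter, and mutant Ex-4 (0) gave 1 without a filter. The untreated mutant (2) gave 1 with a pseudocount of 1, 0 at 2-fold and 1 with a filter of 300 counts, and WT FSK (2) gave 1 and 0 with a pseudocount of 1 and at 2-fold. Mutant FSK (2) gave 1 with a pseudocount of 1, 0 at 2-fold and 1 on rescaling, with the median set to 0 and with the length trend removed. In delta cells, WT Ex-4 (2) gave 0 with a pseudocount of 1, 0 at 2-fold, 4 without a filter and 1 with a filter of 300 counts, and mutant Ex-4 (0) gave 1 with a pseudocount of 0.01. The untreated mutant (1) gave 0 with a pseudocount of 1, 0 at 2-fold, 2 with the length trend removed and 3 without a filter. WT FSK (5) gave 0 with a pseudocount of 1, 0 at 2-fold, 3 with the length trend removed and 3 with a filter of 300 counts, and mutant FSK (3) gave 1 with a pseudocount of 1, 1 at 2-fold and 1 with the length trend removed.

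Other exocytosis genes in beta cells gave 3, 0, 4, 2 and 7 past the fold with a pseudocount of 1 for WT Ex-4, mutant Ex-4, the untreated mutant, WT FSK and mutant FSK (17, 2, 18, 11 and 25 as reported), and 9, 1 and 15 with the length trend removed for WT Ex-4, mutant Ex-4 and mutant FSK. Cell type ranges gave the same counts of 2, 0 and 1 on rescaling and without WT CON. The cause of these shifts was not tested. Rescaling moved the median of all genes by up to 0.12 (log2), from -0.04 to 0.08 for the untreated mutant in alpha cells.

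No paired analysis was possible because each condition and cell type was 1 pool. Depth limits *Stx1a*, *Syt4* and *Rab3a* outside beta cells and every member in PP cells.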
